A study of Mus musculus with 6 samples.

Results

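The genes of the ABC (ATP-binding cassette) transporters were compared between hearts of ETX-treated and PBS-treated C57BL/6J mice, aged 14 days (P14) after 1 week of treatment. ETX is an agent that the labels give only by this abbreviation, and PBS, a buffered salt solution, is the vehicle. The genes were chosen by symbol (Abc, a letter from a to g, a number and at most a single further letter, without Abcc9) among transcript clusters assigned to exactly 1 gene. This gave 47 genes of 19938 in all: 16 of subfamily ABCA, 9 of ABCB, 9 of ABCC, 3 of ABCD, 4 of ABCE and ABCF together and 6 of ABCG. The ETX group was 3 hearts (replicates 6, 7 and 10) and the PBS group 3 hearts (replicates 3, 9 and 12), each a biological replicate on its own array. Sex, dose and the parts of the heart taken are not given in the labels.

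ABC proteins bind and split ATP with a pair of conserved nucleotide-binding domains, and most use that energy to move a substrate across a membrane. ABCA and ABCG proteins mainly handle sterols and phospholipids, ABCB holds drug pumps, a phosphatidylcholine transporter and mitochondrial members, and ABCC holds conjugate exporters and the sulfonylurea receptors of potassium channels. ABCD proteins bring fatty acids into peroxisomes or serve vitamin B12 in lysosomes, and ABCE and ABCF proteins have no membrane part and work at the ribosome. In the heart, drug pumps of this family are known from the vessel wall and mitochondrial members from cardiomyocytes.

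The sequences before the transcription start are shown for 4 of the 5 genes that passed the test, and for Abcb1a. That gene lies near Abcb4, with Abcb1b between them, and differed in the other direction without passing. Abca6 had no entry. Each is the 150 bases before a start annotated by RefSeq on GRCm38.p6, read 5′ to 3′ on the gene's own strand, and capitals mark the motifs named below that lie in this stretch on either strand (CACGC before Abcb4 is GCGTG read on the other strand). Of the 47 members, 37 had an entry.
Abcb4, chr5:8893571-8893720, plus strand: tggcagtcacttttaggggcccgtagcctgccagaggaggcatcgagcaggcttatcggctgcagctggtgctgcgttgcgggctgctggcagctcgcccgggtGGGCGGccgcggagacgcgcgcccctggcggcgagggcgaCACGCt
Abcb1a, chr5:8566941-8567090, plus strand: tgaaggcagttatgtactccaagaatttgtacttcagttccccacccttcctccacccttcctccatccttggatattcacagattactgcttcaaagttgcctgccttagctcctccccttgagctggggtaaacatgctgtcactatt
Abcg2, chr6:58584383-58584532, plus strand: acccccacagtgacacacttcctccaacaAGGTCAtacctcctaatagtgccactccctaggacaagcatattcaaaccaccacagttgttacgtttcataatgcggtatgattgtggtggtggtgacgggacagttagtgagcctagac
Abca8a, chr11:110095938-110096087, minus strand: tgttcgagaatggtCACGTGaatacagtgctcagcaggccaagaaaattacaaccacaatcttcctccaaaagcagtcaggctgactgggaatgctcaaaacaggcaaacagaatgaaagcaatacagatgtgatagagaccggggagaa
Abca9, chr11:110168154-110168303, minus strand: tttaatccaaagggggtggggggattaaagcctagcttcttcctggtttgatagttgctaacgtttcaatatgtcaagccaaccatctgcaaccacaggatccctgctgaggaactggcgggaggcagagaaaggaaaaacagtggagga

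The 250 bases before the start were searched on both strands for the box CCAAT, the GC box written as GGGCGG, the TATA element in the form TATAAA, the nuclear receptor half-site AGGTCA, its direct repeat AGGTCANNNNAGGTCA, the core GCGTG bound by the aryl hydrocarbon receptor, and the E-box CACGTG. No 2 of these motifs overlap in the stretches printed, and the half-site is part of the direct repeat. Abcb4 held GGGCGG at 46 bases and the core at 6 bases before the start, and CCAAT farther up. Abcg2 held AGGTCA at 212 and 121 bases before the start, and Abca8a the E-box at 136 bases, while none of the 7 motifs was found before Abca9 or Abcb1a. Of 27025 windows of the same length, 1 for each gene with an entry, 32.96% held GGGCGG, 28.3% GCGTG, 34.5% CCAAT, 13.8% AGGTCA, 13.0% TATAAA and 6.04% CACGTG. The direct repeat was in 0.0111% of them and in 0 of the 37 members' windows, which says only that these letters are not in those windows. GC made up 61.6% of the window of Abcb4 and 40.4% of that of Abcb1a. For each gene the annotated start nearest the 5′ end of the gene was taken, so motifs and GC content hold for that start alone. Which start is used in these hearts was not measured.

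Signals are the authors' log2 values from the RMA method, and a difference is the ETX mean minus the PBS mean on that scale. A signal of a gene depends on its probes, so levels are compared between hearts and not between genes. The 10 cardiomyocyte markers had a mean of 11.08 to 11.20 in ETX and 11.14 to 11.19 in PBS, among the high signals of these arrays. Of these markers 8 lay below 0 (median -0.11) and 0 were called in limma. An unadjusted p under 0.05 was found for 3, with Actn2 and Mybpc3 higher and Tnni3 lower in ETX. Lung epithelium transcripts were high in PBS replicates 3 and 9 (mean of 11 markers 5.61 and 6.87, against 3.46 in PBS replicate 12 and 3.53 to 3.59 in ETX), and atrial transcripts in ETX replicates 6 and 7 and PBS replicate 3 (mean of 9 markers 7.41, 7.42 and 7.91, against 5.98 to 6.24 in the other 3 hearts). Xist, an RNA of the inactive X chromosome, was at 8.34, 2.61 and 8.38 in ETX replicates 6, 7 and 10, against 8.41, 2.87 and 2.67 in PBS replicates 3, 9 and 12, so both groups held high and low hearts. Of the marker lists not taken up below, pericyte and smooth muscle markers had 7 of 9 below 0 (median -0.22), 4 with an unadjusted p under 0.05 and 1 called lower (Vtn, 1.87-fold, limma adjusted p = 0.0049). Over all tested genes 21.9% had an unadjusted p under 0.05 in limma and 2.43% were called lower. Adipose (4 tested) and lymphocyte markers (2 tested) had 0 called in limma and 0 with an unadjusted p under 0.05. In ETX replicate 6, however, the brown fat gene Ucp1 was at 5.72, against 3.76 and 3.77 in the other ETX hearts and 3.57 to 3.68 in PBS. The called ABC genes and called partner genes are given with and without PBS replicates 3 and 9. The marker genes were not tested without them, and the 3 hearts high in atrial transcripts were not left out together. Of the 47 genes, 37 were tested and 10 lay under the limit for dim genes, a mean of 3.45 over all hearts.

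Among the tested ABC genes, Abcb4 and Abcg2 rose in ETX hearts, and Abca6, Abca8a and Abca9 fell. These are 5 of 37 tested members with a limma adjusted p under 0.05, or 13.5%, and 3.56% of all 14953 tested genes passed (1.14% higher and 2.43% lower). The ETX and PBS values of 15 members did not overlap, 7 higher and 8 lower in ETX, or 40.5% of those tested, while 27.7% of all tested genes had no overlap. Of the 37, 19 lay above 0 and 18 below, with a median difference of 0.02, against -0.0063 over all tested genes. The median size of the difference was 0.15 for the members and 0.10 for all tested genes. With all hearts 13 members, or 35.1%, had an unadjusted p under 0.05 in limma, against 21.9% of all tested genes. The shares over all tested genes are also the measure for the counts in the subfamilies and lists below. Leaving out both PBS hearts high in lung transcripts leaves PBS replicate 12 as the single PBS heart, assumed to vary like the others. The differences were then 0.69 for Abcb4, 0.51 for Abcg2, -0.89 for Abca6, -0.78 for Abca8a and -0.57 for Abca9.

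**Figure D1:**
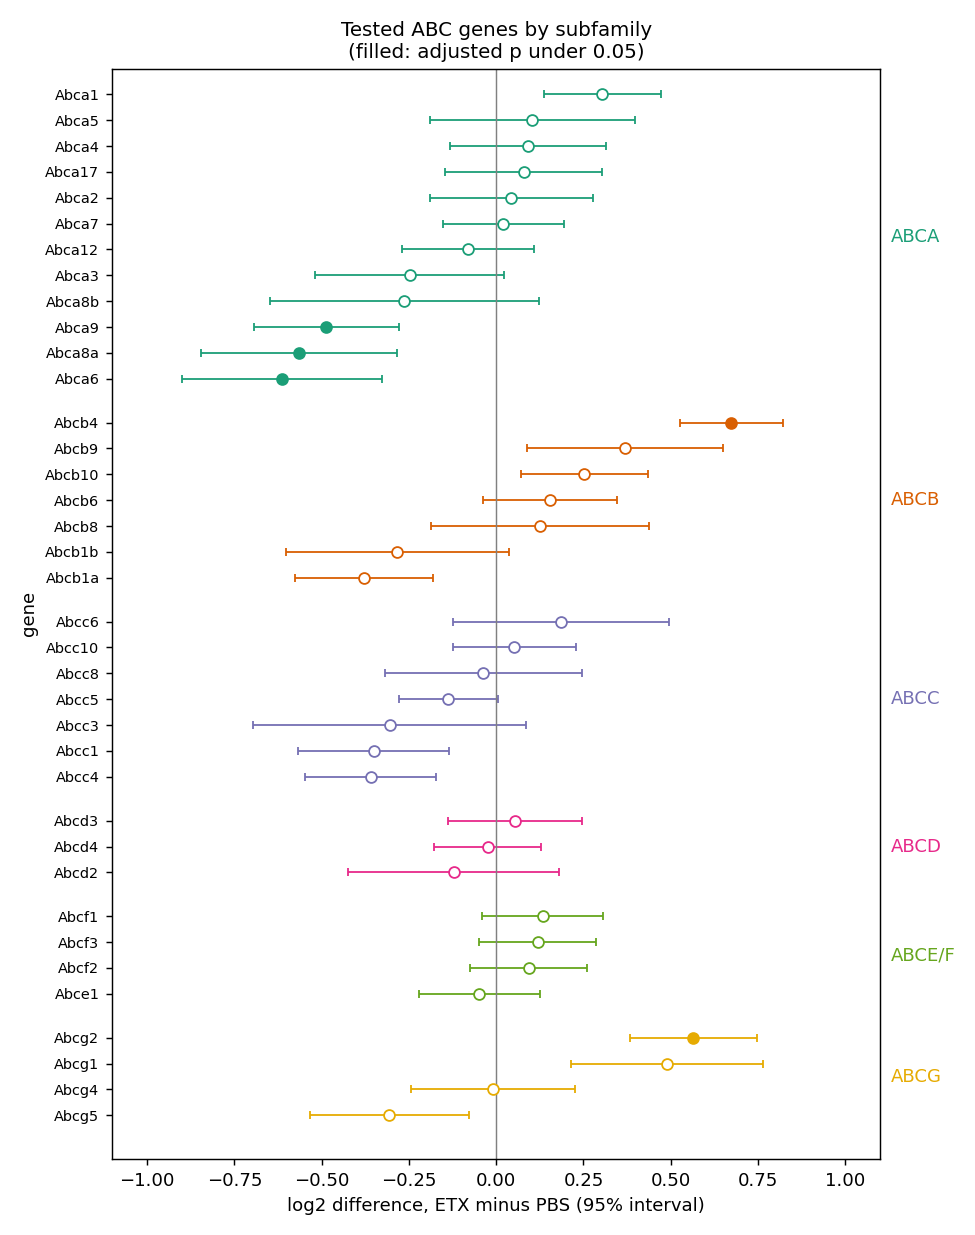
Log2 difference, ETX minus PBS, of the 37 tested ABC genes by subfamily (horizontal axis, with limma's 95% interval; 3 hearts per group). Filled points passed an adjusted p of 0.05: Abcb4 and Abcg2 lie right of 0 and Abca6, Abca8a and Abca9 left of it.

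By subfamily, the tested ABCA genes had a median difference of -0.03, with 6 of 12 above 0 and 3 called, all lower. The ABCB genes had a median of 0.15, with 5 of 7 above 0 and 1 called, and the ABCG genes of 0.24, with 2 of 4 above 0 and 1 called. The ABCC genes had a median of -0.14, with 2 of 7 above 0, and 0 passed in limma, where 2 had an unadjusted p under 0.05. The 3 ABCD genes (median -0.024) and the 4 ABCE and ABCF genes (median 0.11) had 0 called and 0 with an unadjusted p under 0.05. Over all tested genes 3.56% were called and 21.9% had an unadjusted p under 0.05 in limma. With 3 to 12 tested genes in each, the counts are descriptive only. No test of the subfamilies as lists was made.

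Abcb4, the phosphatidylcholine transporter of the bile canaliculus (Mdr2), rose 1.59-fold. Its signal was 6.07, 6.16 and 6.03 in ETX replicates 6, 7 and 10, against 5.42, 5.42 and 5.40 in PBS replicates 3, 9 and 12. The 3 ETX hearts lay close together, and each was above every PBS heart by more than the whole range of either group. The difference was 0.67 (SE 0.064, limma adjusted p = 0.0057; 6.09 ± 0.06 in ETX and 5.41 ± 0.015 in PBS, SD, n = 3 each). Abcb4 passed with each heart left out in turn, with a limma adjusted p of 0.0147 to 0.028. It did not pass without both PBS hearts high in lung transcripts (adjusted p = 0.0761), where the difference was 0.69.

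Abcb1a, the P-glycoprotein of vessel walls that returns drugs to the blood, lies near Abcb4 on chromosome 5 in the RefSeq annotation, where Rundc3b overlaps it. Abcb1b lies between Abcb1a and Abcb4. The signal of Abcb1a was 6.98, 6.99 and 7.20 in ETX replicates 6, 7 and 10, against 7.38, 7.38 and 7.55 in PBS replicates 3, 9 and 12. The groups did not overlap, but the difference of -0.38 (95% interval -0.58 to -0.18) did not pass (limma adjusted p = 0.0549). Abcb1b, the second P-glycoprotein gene of rodents, had 4.23, 3.81 and 3.82 in ETX, against 4.17, 4.08 and 4.46 in PBS, with overlap (difference -0.28, adjusted p = 0.282). The P-glycoprotein genes are close relatives, and probes of each may bind transcripts of the other.

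The log2 signal of Abcb4 minus that of Abcb1a in the same heart was -0.91, -0.84 and -1.17 in ETX, against -1.96, -1.96 and -2.15 in PBS. It was higher by 1.05 in ETX, more than the spread in either group (SD 0.17 in ETX and 0.11 in PBS). Abcb4 was higher and Abcb1a lower in every ETX heart than in any PBS heart, so this value could not overlap between the groups. A two-sided exact permutation test therefore had to give p = 0.1, the smallest that 3 against 3 hearts allow. The test adds nothing to the values. Endothelial markers were lower in ETX, with 10 of 12 below 0, 3 called lower (Tie1, Esam and Cdh5) and a mean level of 8.57 to 8.72 in ETX, against 8.83 to 8.86 in PBS. In bulk tissue fewer cells of a type and less RNA per cell cannot be told apart, and the part of endothelial cells in the Abcb1a values was not tested.

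**Figure D2:**
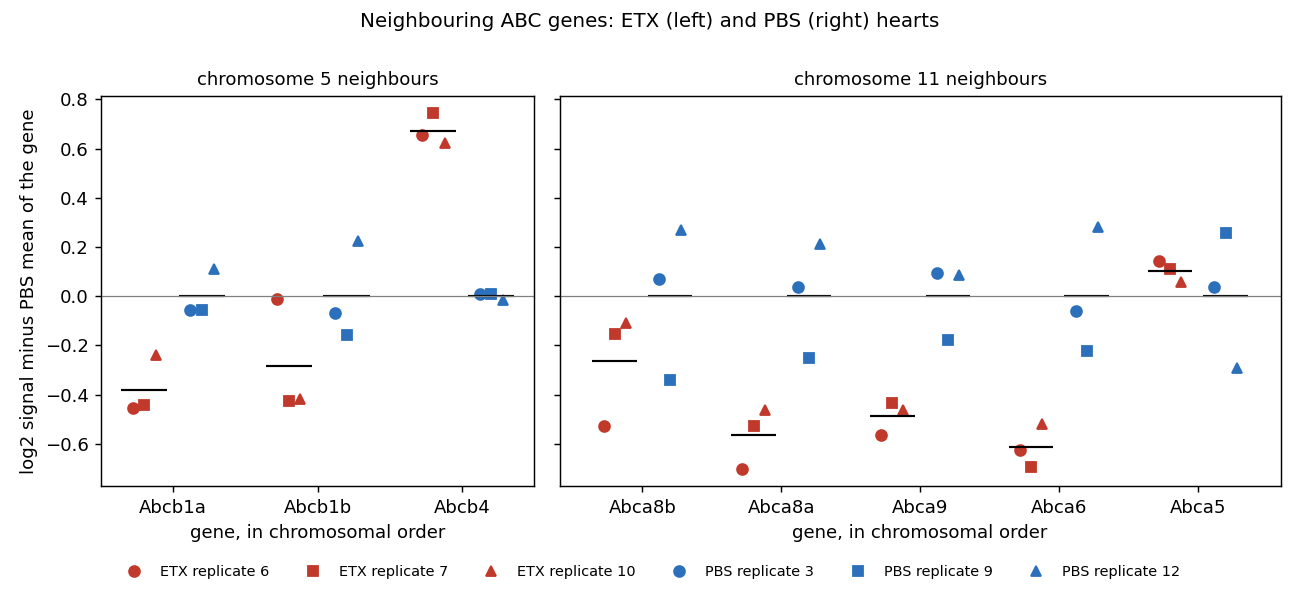
Log2 signal of each heart minus the PBS mean of the gene (vertical axis) for the ABC genes next to each other on chromosomes 5 and 11, in chromosomal order; bars are group means, with ETX hearts left of PBS hearts for each gene. Abcb4 lies above 0 and Abcb1a below 0 in all 3 ETX hearts, and Abca8a, Abca9 and Abca6 lie below 0 while Abca5 does not.

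Abca6, Abca8a and Abca9 fell together. They belong to a row of 5 ABCA genes on chromosome 11 (Abca8b, Abca8a, Abca9, Abca6 and Abca5) with 0 other protein-coding genes between them in the RefSeq annotation. These genes arose by duplication, their substrates are less settled than those of Abca1, and a role in lipid handling is assumed. Abca6 had 5.51, 5.44 and 5.61 in ETX replicates 6, 7 and 10, against 6.07, 5.91 and 6.42 in PBS replicates 3, 9 and 12. It was 1.53-fold lower (difference -0.61, limma adjusted p = 0.0411), and PBS replicate 12 stood highest.

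Abca8a, whose protein has been linked to sterol export, had 7.85, 8.03 and 8.09 in ETX, against 8.59, 8.31 and 8.77 in PBS. It was 1.48-fold lower (difference -0.56, limma adjusted p = 0.0486), with PBS replicate 9 nearest to the ETX hearts. Abca9 had 6.58, 6.72 and 6.68 in ETX, against 7.24, 6.97 and 7.23 in PBS. It was 1.40-fold lower (difference -0.49, limma adjusted p = 0.0334), again with PBS replicate 9 as the lowest PBS heart.

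The outer genes of the row did not pass. Abca8b had 5.40, 5.77 and 5.82 in ETX, against 6.00, 5.59 and 6.20 in PBS, and PBS replicate 9 lay among the ETX hearts (difference -0.26, adjusted p = 0.403). Its sequence is close to that of Abca8a, so probes may bind both. The signal of Abca8a minus that of Abca8b in the same heart was 2.45, 2.25 and 2.27 in ETX, against 2.59, 2.72 and 2.57 in PBS. Abca5, a lysosomal member, had 5.25, 5.22 and 5.17 in ETX, against 5.15, 5.37 and 4.82 in PBS, with a difference of 0.10 (95% interval -0.19 to 0.40, adjusted p = 0.683). The signal of Abca6 minus that of Abca5 in the same heart was 0.25, 0.22 and 0.44 in ETX, against 0.93, 0.55 and 1.597 in PBS, and Abca9 minus Abca5 was 1.33, 1.497 and 1.52 in ETX, against 2.09, 1.604 and 2.41 in PBS. Neither of these values overlapped between the groups (two-sided exact permutation p = 0.1 for each, the smallest possible). These pairs were chosen after the values were seen, so the p-values are descriptive only.

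The calls of Abca6, Abca8a and Abca9 were lost when any single heart other than PBS replicate 9 was left out, with limma adjusted p of up to 0.144, 0.142 and 0.101. The differences lay between -0.72 and -0.44 in the 6 fits without a heart. They did not pass without PBS replicates 3 and 9 together either (adjusted p of 0.0582, 0.0763 and 0.0965). With lung markers as a covariate, Abca6 and Abca8a passed and Abca9 did not (adjusted p = 0.0685), and with atrial markers or the Xist level as a covariate all 3 lost the call. With all 6 hearts Abca8a also lost it with no filter on dim genes (adjusted p = 0.0581) and after further quantile normalization (0.0557). Of the fibroblast markers 7 of 9 lay below 0, with a median of -0.17. Their mean level overlapped between the groups, with 9.47 to 9.66 in ETX, against 9.57 to 9.73 in PBS. Postn (difference 0.35, limma adjusted p = 0.155) and Tcf21 (0.10) lay above 0. Every ETX heart was above every PBS heart for Postn, and below every PBS heart for Pdgfra, Col3a1, Dcn and Dpt. Over all tested genes 27.7% had no overlap. An unadjusted p under 0.05 in limma was found for 5 of the 9 markers, against 21.9% of all tested genes. The called fibroblast marker was Pdgfra (1.42-fold lower, limma adjusted p = 0.0302). The part of fibroblasts in the fall of the 3 ABCA genes was not tested.

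**Figure D3:**
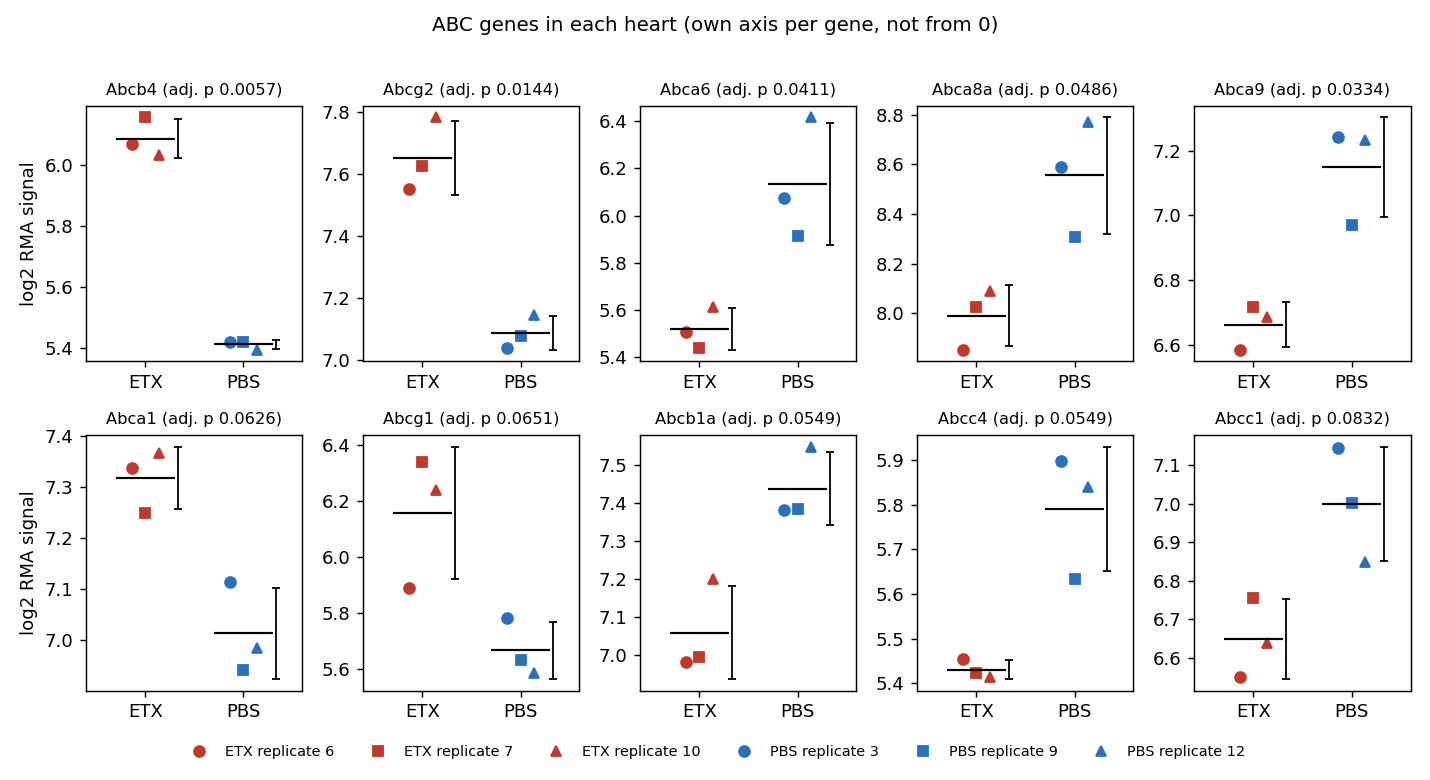
Log2 signal of 10 ABC genes in each heart (vertical axes differ between genes and do not start at 0); points are hearts, bars are group means and whiskers 1 SD (n = 3). The upper row passed the test and the lower row did not. The 10 genes shown are among the 15 members whose ETX and PBS hearts do not overlap (40.5% of those tested, against 27.7% of all tested genes).

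Abcg2, the breast cancer resistance protein that exports urate, porphyrins and drugs, rose 1.48-fold. Its signal was 7.55, 7.62 and 7.78 in ETX replicates 6, 7 and 10, against 7.04, 7.08 and 7.15 in PBS replicates 3, 9 and 12. The lowest ETX heart was clearly above the highest PBS heart, and the difference was 0.56 (SE 0.079, limma adjusted p = 0.0144). Abcg2 did not pass without ETX replicate 7 (adjusted p = 0.0604), without PBS replicate 3 (0.0585), with lung markers as a covariate (0.0928) or without PBS replicates 3 and 9 together (0.136). Its differences stayed between 0.50 and 0.62 in all alternatives.

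Abcg2 is made in endothelial and in erythroid cells. Endothelial markers were lower in ETX (above), while erythroid markers were higher: all 4 tested lay above 0, Alas2 (1.498-fold) and Slc4a1 (1.55-fold) passed with limma adjusted p of 0.0348 and 0.0385, and the mean level was 5.36 to 5.48 in ETX, against 5.03 to 5.18 in PBS. The part of red cell precursors in the rise of Abcg2 was not tested.

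**Figure D4:**
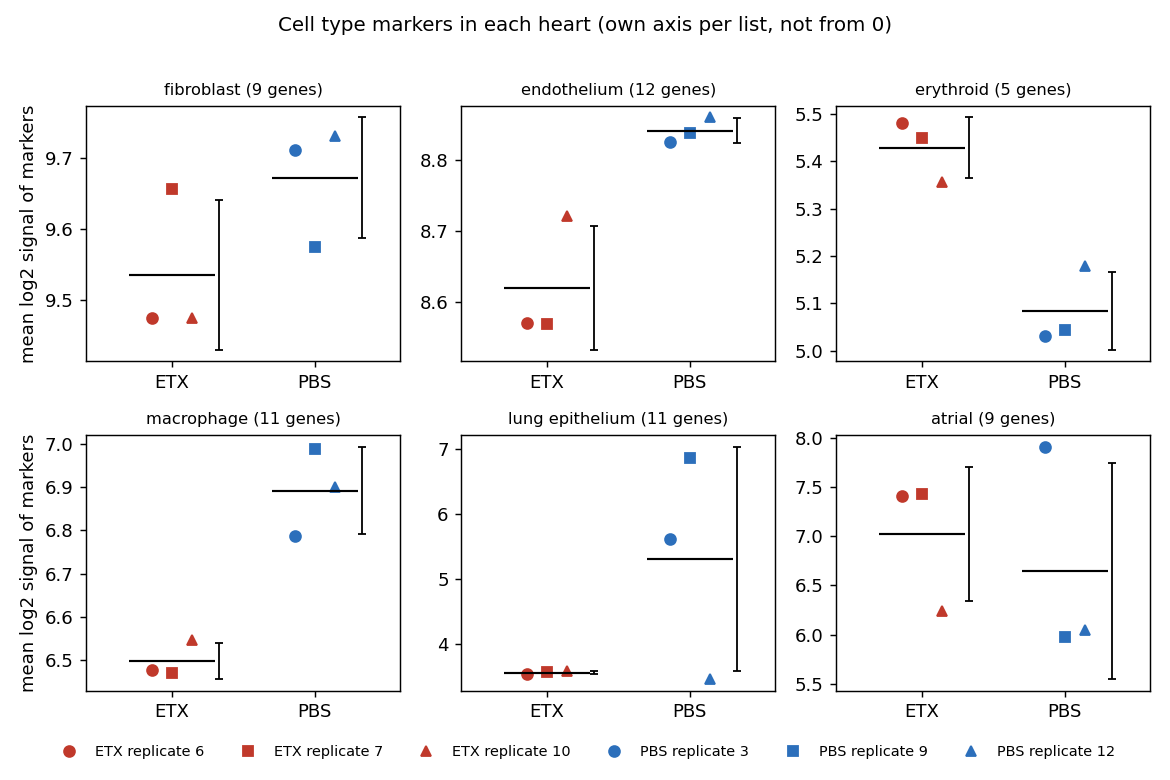
Mean log2 signal of 6 lists of cell type markers in each heart (vertical axes differ and do not start at 0); points are hearts, bars are group means and whiskers 1 SD (n = 3). Endothelial and macrophage markers lie lower and erythroid markers higher in all ETX hearts, and PBS replicates 3 and 9 stand apart in lung epithelium.

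The cholesterol exporters Abca1 and Abcg1 were higher in every ETX heart than in any PBS heart, and neither passed. Abca1, which loads cholesterol and phospholipid onto apolipoprotein A-I, had 7.34, 7.25 and 7.36 in ETX, against 7.11, 6.94 and 6.98 in PBS (difference 0.30, 95% interval 0.14 to 0.47, limma adjusted p = 0.0626). Abcg1, which passes sterol to HDL, had 5.89, 6.34 and 6.24 in ETX, against 5.78, 5.63 and 5.59 in PBS (difference 0.49, 95% interval 0.21 to 0.76, adjusted p = 0.0651). ETX replicate 6 was the ETX heart nearest to PBS for Abcg1, which passed without it (adjusted p = 0.0366). This was the 1 of 6 fits without a heart in which Abcg1 passed, and the limma adjusted p was up to 0.188 in the others. Macrophages carry much of both transcripts, and macrophage markers ran the other way, with all 11 below 0, 5 called lower and a mean level of 6.47 to 6.55 in ETX, against 6.79 to 6.99 in PBS. The part of macrophages in the Abca1 and Abcg1 values was not tested.

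Both genes are known targets of the liver X receptors (LXR), the sterol sensors of the nucleus. In a list of 20 LXR and sterol transport genes, 17 were tested, 7 lay above 0 and 10 below (median -0.019), and 1 rose and 1 fell. Mylip, the LXR-induced ligase that degrades the LDL receptor, rose 1.61-fold. It had 7.88, 7.71 and 8.08 in ETX, against 7.30, 7.04 and 7.27 in PBS (difference 0.68, limma adjusted p = 0.0251). The call was lost in 4 of 6 fits without a heart. It was also lost with lung markers (adjusted p = 0.123), atrial markers (0.0552) or the Xist level (0.0501) as a covariate. Without PBS replicates 3 and 9 together the difference of Mylip was 0.62. Npc1, the lysosomal cholesterol exporter, was 1.26-fold lower, with 7.46, 7.53 and 7.67 in ETX, against 7.91, 7.87 and 7.90 in PBS (adjusted p = 0.0496). It lost the call in all 6 fits without a heart and with no filter on dim genes (0.0642). The same held with lung markers (0.164), atrial markers (0.0917) or the Xist level (0.106) as a covariate. Without PBS replicates 3 and 9 together the difference of Npc1 was -0.34. The LXR targets Srebf1 (difference 0.25, adjusted p = 0.0735) and Pltp (-0.33, 0.0754) did not pass and lay on opposite sides of 0.

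The other ABCG genes did not pass. Abcg5, the partner of Abcg8 in sterol excretion by liver and gut, had 3.61, 3.28 and 3.42 in ETX, against 3.84, 3.63 and 3.75 in PBS, near the limit for dim genes, so no fold is given (adjusted p = 0.127). Abcg8 itself was dim, with 3.09 to 3.27 in ETX and 3.22 to 3.36 in PBS. Abcg4, a sterol exporter of the brain, differed by -0.0090 (95% interval -0.24 to 0.23, adjusted p = 0.971).

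Of the other ABCA genes, Abca3, which packs surfactant lipid in lung epithelium, had 5.73, 5.67 and 5.47 in ETX, against 5.87, 6.09 and 5.66 in PBS. Its difference of -0.25 did not pass (adjusted p = 0.270) and was -0.037 with lung markers as a covariate. PBS replicates 9 and 3, the hearts with lung transcripts, were its highest. Abca2, Abca4, Abca7, Abca12 and Abca17, genes known mainly from brain, retina, immune cells, skin and testis in that order, differed by -0.081 to 0.090, and in each of them the groups overlapped (adjusted p of 0.613 to 0.904).

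Of the 7 tested ABCC genes 5 lay below 0, and none passed. Abcc4, which exports cyclic nucleotides and prostaglandins, had 5.45, 5.42 and 5.41 in ETX, against 5.90, 5.63 and 5.84 in PBS (difference -0.36, 95% interval -0.55 to -0.17, limma adjusted p = 0.0549). It passed without PBS replicate 9 (adjusted p = 0.0373). This was the 1 of 6 fits without a heart in which Abcc4 passed, and the limma adjusted p was up to 0.165 in the others. Abcc1, which exports leukotriene C4 and glutathione conjugates, had 6.55, 6.76 and 6.64 in ETX, against 7.15, 7.003 and 6.85 in PBS (difference -0.35, adjusted p = 0.0832), and was at -0.25 with lung markers as a covariate (0.320). Its groups, like those of Abcc4, did not overlap.

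Abcc5, another exporter of cyclic nucleotides, had 5.62, 5.55 and 5.64 in ETX, against 5.72, 5.76 and 5.74 in PBS, a small shift without overlap (difference -0.14, adjusted p = 0.241). Abcc3, an exporter of bile salts and glucuronides, was at 5.34 in PBS replicate 9, the heart with the most lung transcripts, against 4.54 to 4.68 in ETX and 4.73 and 4.63 in PBS replicates 3 and 12. Its difference of -0.31 (adjusted p = 0.341) was 0.032 with lung markers as a covariate. Abcc6, which keeps soft tissue from mineralising, and Abcc10, a drug exporter, differed by 0.19 and 0.052, with overlap.

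In a list of 19 genes of drug response and glutathione, 16 were tested, 8 lay above 0 and 8 below, and 2 fell. Nfe2l2, the transcription factor NRF2 that induces several ABCC exporters, was 1.36-fold lower, with 8.31, 8.24 and 8.45 in ETX, against 8.65, 8.77 and 8.91 in PBS (limma adjusted p = 0.0420). It lost the call in all 6 fits without a heart and with no filter on dim genes (adjusted p = 0.0515). The same held with lung markers (0.0994), atrial markers (0.0566) or the Xist level (0.103) as a covariate. Without PBS replicates 3 and 9 together the difference of Nfe2l2 was -0.58, against -0.44 with all hearts. Cyp1a1, a target of the aryl hydrocarbon receptor, had 3.37 ± 0.12 in ETX and 4.65 ± 0.53 in PBS (SD, n = 3 each, limma adjusted p = 0.0314), with the ETX mean under the limit for dim genes. It lost the call in 4 of 6 fits without a heart (adjusted p of up to 0.106), with robust eBayes (0.0524) and with atrial markers (0.0553) or the Xist level (0.0704) as a covariate, and passed without PBS replicates 3 and 9 together (0.0109).

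Abcc8, the sulfonylurea receptor SUR1 of ATP-sensitive potassium channels in atria and pancreatic beta cells, had 6.50, 6.16 and 6.26 in ETX, against 6.57, 6.22 and 6.24 in PBS. The groups overlapped (difference -0.037, 95% interval -0.32 to 0.25, adjusted p = 0.895). The highest heart of each group, ETX replicate 6 and PBS replicate 3, was among the 3 hearts with high atrial transcripts, and the other of these, ETX replicate 7, had the lowest Abcc8 signal of the 6 hearts. Abcc9, the SUR2 receptor of ventricle and vessel, differed by -0.030 (95% interval -0.18 to 0.12). The channel subunit Kcnj8, its partner in vessels, differed by -0.12 (adjusted p = 0.316), and 0 of the 3 potassium channel genes listed passed or had an unadjusted p under 0.05 in limma.

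The mitochondrial ABCB genes lay above 0 without passing. Abcb10, an inner membrane protein needed for heme synthesis, had 6.42, 6.37 and 6.38 in ETX, against 6.25, 6.00 and 6.16 in PBS (difference 0.25, 95% interval 0.07 to 0.43, limma adjusted p = 0.120), without overlap. Abcb8, linked to iron export from mitochondria, had 6.69, 6.17 and 6.26 in ETX, against 6.33, 6.12 and 6.30 in PBS. Only ETX replicate 6 stood above the PBS hearts, and without it the difference of 0.13 (adjusted p = 0.637) was -0.033. This is the heart with the high Ucp1 signal, whose part in the Abcb8 value was not tested. Abcb6, a porphyrin transporter, had 6.10, 6.26 and 6.14 in ETX, against 6.08, 5.87 and 6.08 in PBS (difference 0.15, adjusted p = 0.330), so that the groups came close without overlapping.

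Of 26 listed genes of iron-sulfur cluster and heme synthesis, 23 were tested and 18 lay above 0 (median 0.093). In limma 0 passed and 5 had an unadjusted p under 0.05, against 21.9% of all tested genes. Those with the smallest p were the heme-degrading enzyme Hmox1 (difference -0.64, adjusted p = 0.0667) and the cluster chaperone Hscb (0.25, 0.114). Hmox1 was at 6.08 and 6.50 in PBS replicates 3 and 9, the hearts with lung transcripts. It was at 5.80 in PBS replicate 12 and 5.42 to 5.58 in ETX, and its difference lay between -0.80 and -0.29 in the alternatives. Abcb10 and Abcb6 are known from red cell precursors as well, whose markers were higher in ETX (above). Their part in these values was not tested.

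Abcb9, a lysosomal peptide transporter, had 5.58, 5.19 and 5.60 in ETX, against 4.97, 5.22 and 5.07 in PBS. ETX replicate 7 lay within the PBS range, and the difference of 0.37 did not pass (95% interval 0.09 to 0.65, adjusted p = 0.133). Its relatives Tap1 and Tap2, which load peptides onto MHC class I, differed by -0.019 (95% interval -0.56 to 0.52) and -0.027 (-0.30 to 0.25). For Tap1 ETX replicate 10 was at 6.26 and the other ETX hearts at 5.33 and 5.38, against 5.65, 5.87 and 5.50 in PBS.

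The peroxisomal ABCD genes overlapped between the groups. Abcd3 (PMP70), which brings branched and dicarboxylic acyl-CoA into peroxisomes, had 8.84, 8.97 and 9.10 in ETX, against 8.86, 8.98 and 8.91 in PBS (difference 0.055, 95% interval -0.14 to 0.25). Abcd2, a transporter of very long and polyunsaturated acyl-CoA, had 6.08, 6.06 and 5.71 in ETX, against 5.99, 6.30 and 5.93 in PBS (difference -0.12, -0.42 to 0.18). Abcd4, which serves vitamin B12 release from lysosomes, had 5.63, 5.56 and 5.53 in ETX, against 5.66, 5.56 and 5.57 in PBS (difference -0.024, -0.18 to 0.13). Of 24 peroxisome genes listed 21 were tested, 12 above and 9 below 0 (median 0.013), with 0 called in limma and 0 at an unadjusted p under 0.05, and Scp2 (difference -0.17) and catalase (Cat, -0.20) had the smallest p.

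The ribosome-associated genes did not pass. Abce1, which splits ribosomes after termination, had 8.91, 9.05 and 9.13 in ETX, against 9.04, 9.10 and 9.09 in PBS (difference -0.048, 95% interval -0.22 to 0.12). Abcf1, which helps start translation, had 7.39, 7.498 and 7.28 in ETX, against 7.30, 7.24 and 7.23 in PBS (difference 0.13, -0.04 to 0.31). Abcf2 had 7.56, 7.58 and 7.59 in ETX, against 7.38, 7.59 and 7.48 in PBS (difference 0.093), and Abcf3 had 6.54, 6.68 and 6.52 in ETX, against 6.50, 6.39 and 6.49 in PBS (difference 0.12). Abcf3 was the gene among them whose groups did not overlap, and its adjusted p was 0.386. Of 9 tested translation genes 6 lay above 0 (median 0.093), 0 passed in limma and 1 had an unadjusted p under 0.05. Hbs1l, a ribosome rescue factor, differed by 0.14 and the initiation factor subunit Eif2b5 by 0.19.

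The 10 dim members were Abca13, Abca14, Abca15, Abca16, Abcb5, Abcb11 (the bile salt export pump), Abcc2 (an exporter of conjugates into bile), Abcc12, Abcg3 and Abcg8. Their group means lay between 2.09 and 3.33 in ETX and between 2.13 and 3.27 in PBS, and in all 10 the groups overlapped. Cftr, an ABC chloride channel outside the symbol rule, was dim too, with 2.36 ± 0.06 in ETX and 2.37 ± 0.03 in PBS (SD, n = 3 each). The array gives no detection call, so no statement on absence is made. Among 14 listed sphingolipid and phospholipid genes, 6 lay above 0 and 0 passed in limma. An unadjusted p under 0.05 was found for 5, against 21.9% of all tested genes. The sphingomyelinase Smpd1 (difference 0.28, limma adjusted p = 0.0588) and the flippase Atp8a1 (-0.32, 0.180) had the smallest p.

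**Figure D5:**
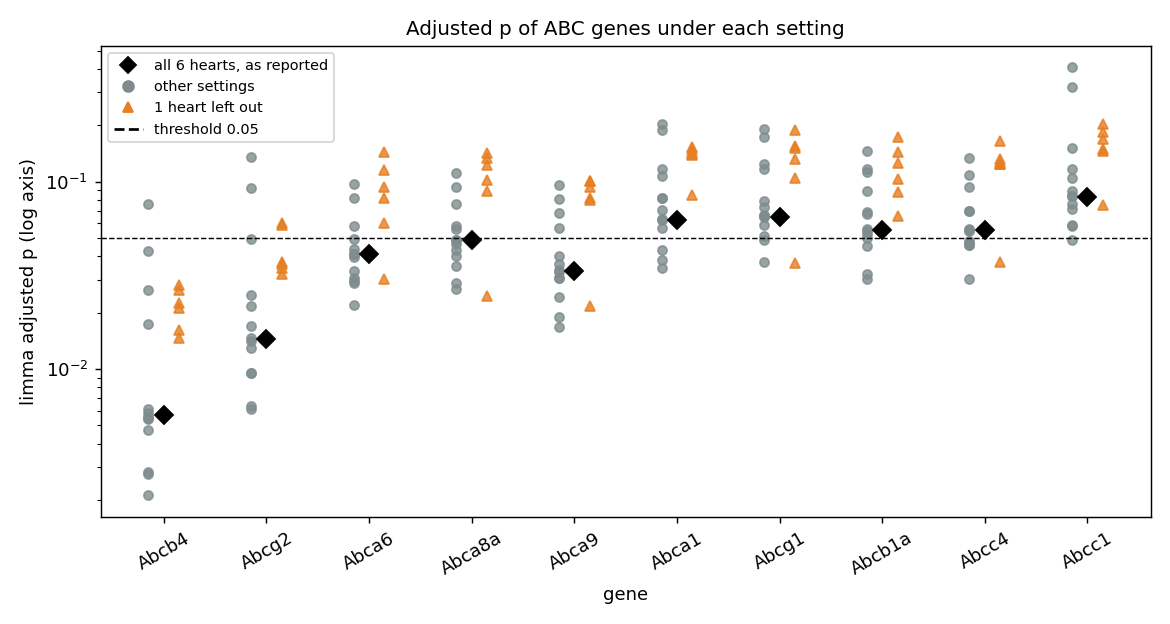
Limma adjusted p (vertical axis, log scale) of 10 ABC genes with all 6 hearts (diamonds), under 13 other settings (circles) and with 1 heart left out (6 triangles per gene); the dashed line is 0.05. Abcb4 lies below the line in all fits except the fit without PBS replicates 3 and 9 together (0.0761), and the other genes cross it.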

How the data were processed

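The deposited values are log2 signals that the authors made with Affymetrix Expression Console and RMA (background correction, quantile normalization and median polish), per the submitters' processing notes, which give no versions. The method compresses differences of dim transcripts. There is no detection call, and the sources used here do not name the annotation build. The table held 35556 transcript clusters in 6 arrays with medians of 4.43 to 4.51; their number limits the precision. Genes were named by a platform annotation table from clusters with 1 symbol; all 47 members were found by gene ID in RefSeq, and the brighter cluster was used for Abcb5, the member with more than 1. Of 19938 genes, those with a mean under the lower quartile (3.45) were left out.

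ETX was compared with PBS with limma 3.58.1 in R 4.3.3 (lmFit, eBayes, two-sided), with p-values adjusted by Benjamini-Hochberg over all 14953 tested genes and a threshold of 0.05; the functions were tested on simulated data. Differences between neighbouring genes used exact permutation over hearts. Named with values were the called members, the 3 of each subfamily with the smallest p or the highest level, a set of well-known members and up to 4 genes of each partner list; Abca5, Abca8b, Abcb6, Abcb9, Abcc3, Abcc6 and Abcc10 were added after their values were seen, as were the pairs of neighbours. The members, partner lists and marker lists were chosen with earlier results of these data known, and of 210 list entries 193 were measured. Marker levels are means of log2 signals. Alternatives were other filters, eBayes options, array weights, normalizations, cluster rules, covariates and hearts left out. Plots came from matplotlib 3.10.9 (Python 3.11.15).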

Additional observations from a re-analysis of the deposited data

How the results depend on the processing

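Of the 37 tested members 23 kept their direction in all 19 alternatives, the 5 called ones among them, and 27 passed in none. The count of called members was 5 with all hearts, 4 with no filter on dim genes, 10 among genes above the median of gene means (where Abca1, Abcb1a, Abcc1, Abcc4 and Abcg1 passed too), 9 with a trend in eBayes, 3 with the lung-marker score, 2 with the atrial-marker score, 2 with the Xist level and 0 without PBS replicates 3 and 9 together; with 1 heart left out it ran from 1 (without ETX replicate 7 or PBS replicate 3) to 6 (without PBS replicate 9). Over all genes the count was 533 with all hearts and, in the order above from the filter at the median on, 909, 870, 75, 146, 126 and 19, and 94 to 241 with 1 heart left out. Covariates and left-out hearts take degrees of freedom; the cause was not tested further. The ABCA median of -0.030 was -0.25 among genes above the median, -0.060 with centred arrays, -0.066 with Xist, 0.030 without PBS replicates 3 and 9 and -0.098 to 0.015 with 1 heart left out. With the lung-marker score the ABCB median was 0.056, the ABCC median -0.019 and the ABCD median 0.049. Without PBS replicates 3 and 9 the ABCC median was -0.031 and the ABCG median 0.19; the ABCG median was 0.53 among genes above the median and 0.16 to 0.28 with 1 heart left out.

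No difference that changed sign was called; the largest of them with all hearts was that of Abcc3 (-0.31). Without PBS replicates 3 and 9 these were Abca12 (0.0020), Abcc8 (0.069), Abcd2 (0.020) and Abcd4 (0.0060); with the lung-marker score Abcc3 (0.032) and Abcd2 (0.049); with centred arrays, the atrial-marker score and Xist Abca7 (-0.0087, -0.012 and -0.0042); and with array weights and Xist Abcg4 (0.010 and 0.024). With 1 heart left out the ranges were -0.0091 to 0.14 for Abca17, -0.064 to 0.11 for Abca2, -0.042 to 0.23 for Abca5, -0.016 to 0.073 for Abca7, -0.033 to 0.23 for Abcb8 and -0.015 to 0.086 for Abcc10. They were -0.13 to 0.079 for Abcc8, -0.013 to 0.12 for Abcd3, -0.053 to 0.0088 for Abcd4, -0.099 to 0.011 for Abce1, -0.071 to 0.091 for Abcg4 and -0.25 to 0.016 for Kcnj2. No paired analysis was possible because the groups share no replicate numbers.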
